A study of Homo sapiens with 12 samples.

Results

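The genes analysed here are 37 members of the pathway that the transcription factor ATF4 controls, together with the enzymes of serine, one-carbon, asparagine and proline synthesis that it feeds. They were chosen by symbol, from their known roles, but with earlier results of these data known. Shares of members set beside those of all genes are therefore descriptions. All 37 were matched to an Ensembl identifier among the 63677 in the count files. RNA-seq had been carried out in LNCaP, an established and androgen-responsive prostate cancer cell line. A control line was compared with a line in which a TALEN, an engineered nuclease, had been aimed at the first codon of Bag-1L, the longest protein form of the BAG1 gene (Bag-1L KO). Both lines were grown in full medium (FM) with untreated serum, or kept for 72 h in phenol red-free medium with charcoal-stripped serum. The starved cells were then given ethanol vehicle (EtOH) or 10 nM dihydrotestosterone (DHT), an androgen, for 16 h. There were 2 replicates in each of the 6 groups, and nothing in the labels says that they came from separate cultures, so that the p-values measure the spread between these samples, which may be technical. The control had received vector, and KO cells had been cloned by serial dilution after nuclease transfection. Loss of Bag-1L and any other difference between these lines therefore cannot be told apart.

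ATF4 is the main effector of the integrated stress response. Kinases such as GCN2 (gene EIF2AK4), which senses uncharged tRNA, and PERK, which senses misfolded protein in the endoplasmic reticulum, phosphorylate the initiation factor eIF2. Most translation then slows, while the ATF4 message is translated more, so that its mRNA level is only a partial measure of the protein. ATF4 dimerizes with C/EBP family proteins, binds composite C/EBP-ATF elements, and switches on amino acid synthesis, amino acid uptake and feedback regulators. Prostate cells secrete large amounts of protein under androgen control.

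The promoters of the members were searched for the core of this element. Promoter sequences (a window of fixed length around the start of each gene, mostly upstream of it, RefSeq, GRCh38.p14) were held for 29 of the 37 members. The core of the element, TGATGNAA on either strand, was present in 6 of these 29 (20.7%) and in 1270 of all 35116 promoters of this length (3.62%). The members that held it were ASNS, ATF3 and CHAC1, which passed between the lines in at least 1 condition, and BCAT1, GOT1 and MTHFD1L, which did not. The ATF/CRE palindrome TGACGTCA, which does not overlap the first motif in any member, was found in 1 member, PPP1R15A, and in 1.85% of all promoters. A match is a description of letters in this window and not evidence of binding. The match and 30 bases on each side of it are printed for the 4 members with a match that were lower in KO in at least 1 condition, with the match in capitals, 5′ to 3′ on the strand of the gene, and ending before the transcription start.
ASNS (chr7:97872439-97872506, minus strand, match starting at base -68): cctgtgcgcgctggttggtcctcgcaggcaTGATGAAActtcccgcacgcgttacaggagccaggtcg
ATF3 (chr1:212565186-212565253, plus strand, match starting at base -191): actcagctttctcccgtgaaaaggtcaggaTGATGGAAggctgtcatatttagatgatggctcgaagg
CHAC1 (chr15:40953232-40953299, plus strand, match starting at base -209, read on the opposite strand): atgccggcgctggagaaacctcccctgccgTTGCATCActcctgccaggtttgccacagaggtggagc
PPP1R15A (chr19:48872333-48872400, plus strand, match starting at base -58): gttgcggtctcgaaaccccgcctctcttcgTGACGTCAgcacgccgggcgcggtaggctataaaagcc

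Libraries held between 20826843 and 30354666 gene counts, and values below are counts divided by each library's size factor (normalized counts), given for replicate 1 and then replicate 2. Counts are raw read counts made by the authors, tested with DESeq2, and a gene passed with a change of 1.5-fold or more at an adjusted p of 0.05 or less. BAG1 mRNA as a whole, whose count does not test the loss of the Bag-1L protein form, ranged from 1701.5 to 2702.6 normalized counts in the 6 control samples and from 1075.5 to 1576.1 in the 6 KO samples. The summed level of 9 prostate luminal markers was between 68959.5 and 131303.2 in every sample. The sum hides differences between the lines. In DHT 3 of the 9 were higher and 2 lower in KO (55.6%, against 7.98% of all genes tested). In FM 3 were higher and 0 lower (33.3%, against 8.01%), and in EtOH 0 passed, against 5.11%. The part of these differences in those of the members was not tested. The immune markers PTPRC and CD3E had fewer than 10 counts summed over the 12 libraries, and the immune marker CD68 did not exceed 3.0 normalized counts in any of them. Of the basal markers, KRT5 and TP63 stayed under 4 normalized counts, while KRT14 was at 14.4 and 10.7 in control FM and 26.1 and 30.7 in KO FM, against 0.0 to 8.1 in the other samples, and was called higher in FM than in EtOH in both lines. Its part in the FM results was not tested. The stromal list summed to between 449.6 and 1730.4, nearly all of it COL1A1 and ACTA2, and it was higher in control DHT (group mean 1703.4) than in KO DHT (874.7), as many members were. The part of this in the members' differences was not tested. The widest gap between replicates was that of control EtOH (median absolute log2 difference 0.238 over 11374 genes, against 0.076 to 0.172 in the other groups). Across genes, the change between KO and control in FM was related to GC content (Spearman's rho 0.49), as was, more weakly, the FM change in control (-0.309), whereas rho was 0.088 for KO against control in EtOH and 0.106 in DHT.

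All 37 members had enough counts to be fitted. ALDH1L2, a mitochondrial folate enzyme, had at most 9 counts in any library and BCAT1, a branched-chain aminotransferase, at most 8, so changes in them were not detectable at this depth. DESeq2 gave both no adjusted p in the comparisons of the lines or with DHT, which left 35 members tested there. The other members averaged between 176 (CTH) and 12913 (PHGDH) normalized counts. Per kilobase of exon, ATF4 had the highest mean level over the 12 libraries (4720 normalized counts per kb), followed by PSAT1 (2920), EIF4EBP1 (2820) and SHMT2 (2400), while PPP1R15A (59.1) and VLDLR (29.6) were the lowest of the 35. Pseudogenes named after 11 members are annotated, among them 7 of MTHFD2, 5 of ASNS and 4 each of ATF4 and PSAT1. Of the 37 members, 16 overlap another annotated gene, and for 15 such a gene lies on the opposite strand. These 15 include DDIT3, which overlaps MARS1, and also ATF3, ATF5, ASNS and MTHFD2. The strand setting of the counting is not given in the sources used here, so reads of such a pair may not have been told apart. HTSeq by default drops reads that fit several places or genes, so these counts are uncertain to that extent.

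**Figure D1:**
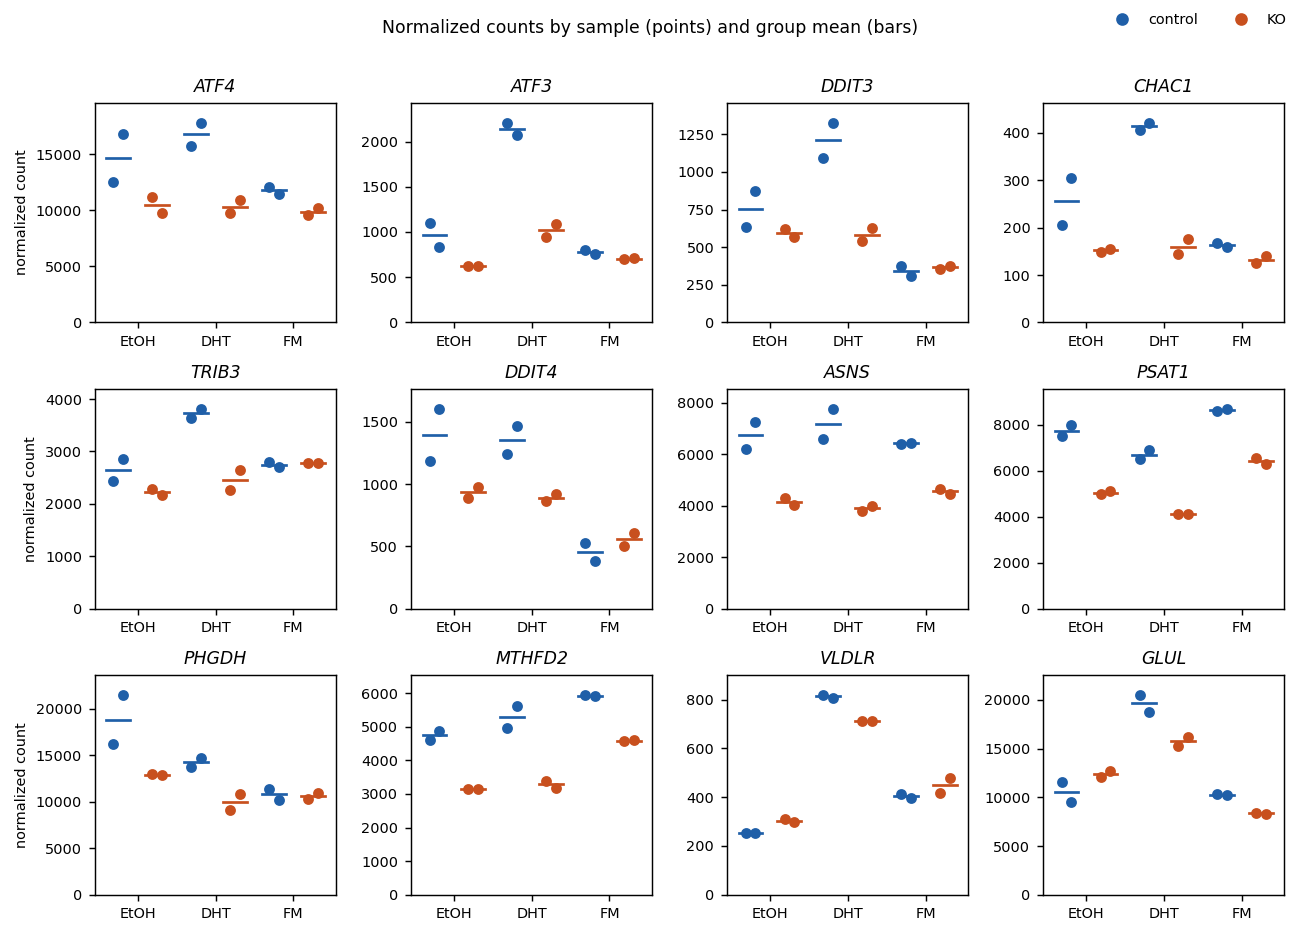
Normalized counts (vertical axes, from 0) of 12 members in EtOH, DHT and FM, with control in blue and KO in orange. Points are the 2 samples of a group and horizontal bars their mean, and the KO samples in DHT lie below both control samples in every panel.

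More members differed between the lines under DHT than in EtOH or FM. Of the 35 members tested, 14 were lower in KO and 0 higher, against 7.98% of all 16014 genes tested, 3.32% lower and 4.66% higher. The median log2 fold change of the members was -0.46, beside -0.018 over all genes tested, and 35 of 37 were below 0. The 14 comprised 6 of the 8 transcription factors and sensor kinase, 5 of the 8 feedback and stress effectors, and the enzymes ASNS, PSAT1 and MTHFD2.

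ATF4 itself had 15779 and 17849 normalized counts in the control samples given DHT and 9765 and 10938 in the KO samples (log2 fold change -0.70, standard error 0.14, adjusted p = 2.1e-05). Both KO samples were below both controls, by 1.62-fold on average. ATF3, a stress-induced partner and target of ATF4, had 2210.0 and 2069 in control and 948 and 1089 in KO (log2 fold change -1.07, standard error 0.14, adjusted p = 1.74e-12). DDIT3, which encodes the pro-apoptotic factor CHOP, had 1093 and 1328 against 538 and 626 (log2 fold change -1.06, standard error 0.17, adjusted p = 5.86e-08). The levels of ATF3 and DDIT3 in KO were thus under those of control by more than 2-fold. CEBPB and CEBPG are the C/EBP partners of ATF4. CEBPB had 718 and 918 in control and 447 and 519 in KO (log2 fold change -0.76, standard error 0.19, adjusted p = 0.000835), and CEBPG had 1577 and 1780.4 against 1089 and 1001 (log2 fold change -0.68, standard error 0.11, adjusted p = 5.58e-08). NUPR1, a small stress-induced chromatin protein, had 6839 and 7780.2 against 4067 and 5045 (-0.68, adjusted p = 0.00182). Leaving out replicate 2 of control DHT or replicate 1 of KO DHT ended the calls of CEBPB and NUPR1, and in the next group those of PPP1R15A, TRIB3 and DDIT4. The share of all genes passing fell as well in both of these fits. ATF5, a related factor also controlled by translation, had 945 and 1033 against 638 and 715, and its value of -0.55 did not pass, nor did that of EIF2AK4 (3267 and 2823 against 3529.7 and 3392, 0.18).

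CHAC1, a glutathione-degrading enzyme, had the largest fall of all members. Its normalized counts were 406 and 422 in the control samples against 144 and 176 in the KO samples (log2 fold change -1.38, standard error 0.21, adjusted p = 1.7e-09), a 2.59-fold lower level. PPP1R15A, also known as GADD34, returns phosphorylated eIF2 to its active state. It had 350.3 and 366 in control and 192 and 232 in KO (log2 fold change -0.76, standard error 0.20, adjusted p = 0.00182). TRIB3, a pseudokinase that restrains ATF4, had 3644 and 3816 against 2259 and 2642 (log2 fold change -0.61, standard error 0.12, adjusted p = 7.27e-06). STC2, a secreted glycoprotein, had 2289.7 and 2239 against 1296 and 1369.5 (log2 fold change -0.76, standard error 0.12, adjusted p = 3.97e-09). The samples of the lines were separate for each of these genes. DDIT4, an inhibitor of mTORC1, had 1246 and 1466 against 862 and 921 (log2 fold change -0.61, standard error 0.18, adjusted p = 0.00766). TRIB3 and DDIT4 exceeded the fold change minimum narrowly, and under edgeR they were at -0.58 and -0.57 and no longer passed. SESN2, another mTORC1 inhibitor that senses leucine, had 863 and 684 against 578 and 673, with both KO samples below both controls and a value of -0.31 that did not pass. EIF4EBP1, which encodes the translation repressor 4E-BP1, had 2478 and 2679 against 1632 and 2145 and did not pass (-0.45). VLDLR, a lipoprotein receptor, was at -0.19.

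Among the enzymes, ASNS, which makes asparagine, was 6586 and 7764 in control and 3808 and 3999 in KO (log2 fold change -0.88, standard error 0.12, adjusted p = 4.26e-12). PSAT1, the aminotransferase of serine synthesis, was 6502 and 6896 against 4116 and 4096 (log2 fold change -0.71, standard error 0.09, adjusted p = 2.36e-13). MTHFD2, a mitochondrial enzyme of folate metabolism, was 4966 and 5601 against 3387 and 3188 (log2 fold change -0.68, standard error 0.10, adjusted p = 2.1e-10). The KO levels of ASNS, PSAT1 and MTHFD2 were 1.84-fold, 1.63-fold and 1.61-fold lower, and the samples of the lines were separate. PHGDH, the first enzyme of the serine pathway, was 13791 and 14701 against 9169 and 10824, and its change (log2 fold change -0.51, standard error 0.14, adjusted p = 0.00275) was smaller than the fold change minimum. PSPH, the last enzyme of that pathway, was at -0.32. The other tested folate, proline, transsulfuration and aminotransferase members had values between -0.46 (SHMT2) and -0.03 (BCAT2), none of which passed. ASS1, which makes the precursor of arginine, was among the 2 members above 0, at 0.33.

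**Figure D2:**
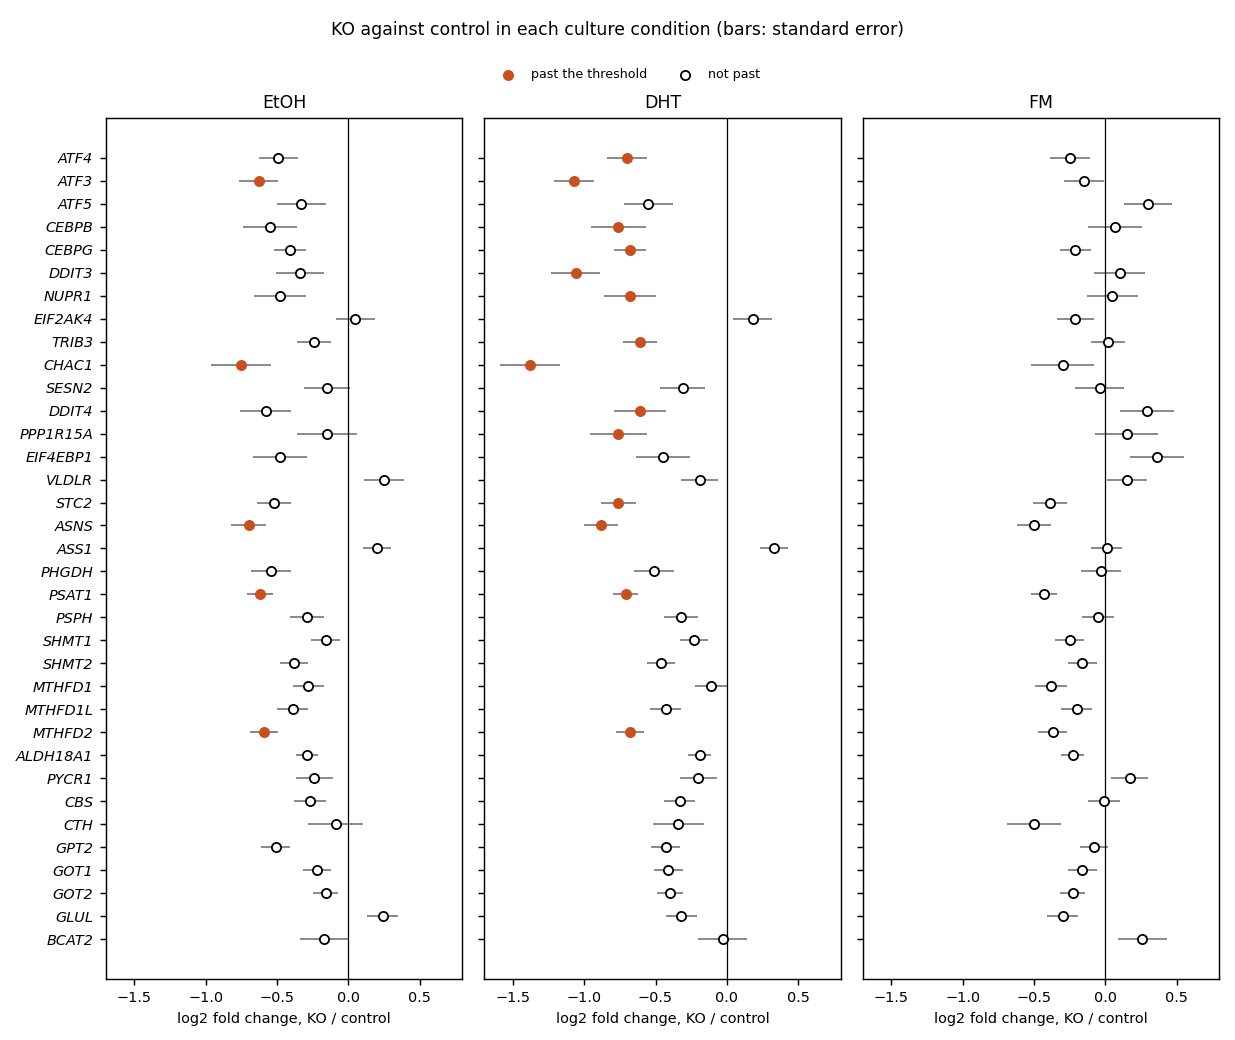
Log2 fold change of KO over control (horizontal axes) for the 35 members tested, in EtOH, DHT and FM, with bars for the standard error. Filled points passed the threshold, 5 in EtOH, 14 in DHT and 0 in FM, and nearly all points in DHT lie left of 0.

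Without androgen the difference had the same direction and fewer members passed. In EtOH 5 of 35 were lower in KO and 0 higher, against 5.11% of 16521 genes tested (2.31% lower, 2.8% higher), and the median over the members was -0.33 beside -0.015 over all genes tested. ASNS had 6203 and 7252 in the control samples and 4283 and 4028 in the KO samples of EtOH (log2 fold change -0.70, standard error 0.12, adjusted p = 1.76e-07). PSAT1 had 7497 and 7974 against 4971 and 5119.5 (log2 fold change -0.62, standard error 0.09, adjusted p = 4.24e-10), and MTHFD2 had 4617 and 4874 against 3133 and 3152 (log2 fold change -0.59, standard error 0.10, adjusted p = 1.16e-07). Both KO samples lay below both control samples for each of these enzymes. ATF3 had 1095 and 835 against 627 and 619 (log2 fold change -0.63, standard error 0.14, adjusted p = 0.000371), and CHAC1 206 and 304 against 149 and 154 (log2 fold change -0.75, standard error 0.21, adjusted p = 0.00703). The control samples of ATF3 and CHAC1 were farther apart. MTHFD2 passed the fold change minimum narrowly. With the counts adjusted for GC content, PSAT1 (-0.58) and MTHFD2 (-0.56) no longer passed. With DESeq2 on only the samples compared, ATF3 (adjusted p = 0.0577) and CHAC1 (adjusted p = 0.129) did not pass. ATF4 had 12576 and 16825 in control and 11172 and 9768 in KO, and at -0.49 (standard error 0.14, adjusted p = 0.00868) it did not reach the fold change minimum. Without replicate 2 of control EtOH the calls of ASNS, PSAT1, MTHFD2 and CHAC1 ended, while the share of all genes passing changed little. Without replicate 1 of control EtOH more members passed, ATF3 not among them, and so did a larger share of all genes. The call of CHAC1 also ended without either KO EtOH sample. PHGDH (16214 and 21504 against 12985 and 12868) and DDIT4 (1189 and 1606 against 891 and 975) were at -0.54 and -0.58, short of the minimum. TRIB3 (2428 and 2859.8 against 2284 and 2178) was at -0.24, DDIT3 (636 and 876 against 624 and 568) at -0.34 and SESN2 (739 and 581 against 572 and 616) at -0.15. GLUL, VLDLR, ASS1, ALDH1L2 and EIF2AK4 were above 0, and none of them passed.

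In full medium no member passed by DESeq2, against 8.01% of 15000 genes tested (2.6% lower, 5.41% higher). The unadjusted p was under 0.05 for 10 members, and the share of all genes with such a p was not computed. An adjusted p of at most 0.05 with a smaller fold change than required was found for 9, all of them lower in KO. Whatever the fold change, 18.5% of all genes tested had such an adjusted p. With edgeR 0 members were called as well, beside 5.51% of all genes tested. The median over the members was -0.15 beside -0.014 over all genes tested. ATF4 had 12110.2 and 11473 in the control samples and 9563 and 10201 in the KO samples of FM (-0.25, adjusted p = 0.201). ASNS had 6414 and 6448 against 4643 and 4462 (log2 fold change -0.50, standard error 0.12, adjusted p = 0.000428). PSAT1 had 8593 and 8694 against 6567 and 6294 (log2 fold change -0.43, standard error 0.09, adjusted p = 4.89e-05). For ASNS and PSAT1 the KO samples were below the controls here too, by less than the minimum. MTHFD2 was similar, with 5945 and 5910.0 against 4568 and 4602 (-0.37, adjusted p = 0.00226). CHAC1 had 167 and 158 against 125 and 140.3 (-0.30), ATF3 had 804 and 761 against 704 and 708 (-0.15), and PHGDH had 11427 and 10244 against 10329.7 and 10898 (-0.03). The KO samples lay below the controls for CHAC1 and, narrowly, for ATF3, and the lines overlapped for PHGDH. TRIB3, with 2794 and 2695 against 2780.4 and 2781, overlapped between the lines (0.02), and SESN2, with 548 and 497 against 507 and 511, likewise (-0.04). With the counts adjusted for GC content, to which this comparison was the most related, 0 members passed, beside 5.33% of all genes tested. An unadjusted p under 0.05 was found for 18 members, again without a share of all genes to set beside it. TRIB3 was then at -0.28 (adjusted p = 0.0112) and CHAC1 at -0.58 (adjusted p = 0.018), below the fold change minimum, and the sign of TRIB3 was turned.

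Whether the difference between the lines was larger under DHT than in FM was tested by a contrast added after these values had been seen. Of 35 members, 6 passed, all with a lower KO to control ratio under DHT, against 2.28% of 12971 genes tested (1.31% lower, 0.971% higher). They were ATF3 (log2 fold change -0.92, standard error 0.20, adjusted p = 0.000872), DDIT3 (log2 fold change -1.16, standard error 0.25, adjusted p = 0.000929), CHAC1 (log2 fold change -1.08, standard error 0.30, adjusted p = 0.0223), DDIT4 (log2 fold change -0.90, standard error 0.26, adjusted p = 0.0273), ATF5 (log2 fold change -0.85, standard error 0.24, adjusted p = 0.0233) and TRIB3 (log2 fold change -0.63, standard error 0.17, adjusted p = 0.0142). In FM the KO to control values were -0.15 for ATF3 and -0.30 for CHAC1, against 0.10 for DDIT3, 0.29 for DDIT4, 0.30 for ATF5 and 0.02 for TRIB3, none of which passed, so that for the last 4 the values in FM and DHT had opposite signs. ATF5 had not passed between the lines in DHT either. ASNS (-0.38), PSAT1 (-0.28), MTHFD2 (-0.31) and ATF4 (-0.44, adjusted p = 0.196) did not pass. Across genes this contrast was related to GC content (Spearman's rho -0.387). With the counts adjusted for GC content 6 members passed, 5 of them the same, beside 2.35% of all genes tested. TRIB3 was no longer among them (-0.38). edgeR called 2, ATF3 and DDIT3, beside 0.348% of all genes tested. All calls of members ended without replicate 2 of control FM or replicate 1 of KO DHT, where the share of all genes passing fell as well.

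The androgen response itself was then examined. In control cells DHT raised 7 of the 35 members and lowered 0, against 11.4% of 17535 genes tested (6.04% higher, 5.37% lower), with a median of 0.23 beside -0.017 over all genes tested. In KO cells it raised 2 and lowered 0, against 7.68% of 17535 (4.43% higher, 3.24% lower), with a median of 0.07 beside -0.014. VLDLR had 255 and 254 with EtOH and 819 and 807 with DHT in control, and 309.7 and 296 with EtOH and 713 and 713 with DHT in KO. It rose in both lines (log2 fold change 1.68, standard error 0.14, adjusted p = 1.51e-32 for control, and log2 fold change 1.24, standard error 0.13, adjusted p = 4.08e-18 for KO). ATF3, with the sample values given above, rose in both as well, by 1.15 (standard error 0.14, adjusted p = 9.9e-15) and 0.71 (standard error 0.14, adjusted p = 1.94e-05).

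The other 5 members that DHT raised passed in control and not in KO. GLUL, glutamine synthetase, went from 11540.2 and 9498 to 20500.4 and 18765 in control (log2 fold change 0.90, standard error 0.11, adjusted p = 1.85e-14) and from 12104 and 12689.6 to 15292 and 16182 in KO (0.34, adjusted p = 0.0174). PPP1R15A went from 188 and 217 to 350.3 and 366 in control (log2 fold change 0.83, standard error 0.20, adjusted p = 0.000402) and from 188 and 176 to 192 and 232 in KO (0.22). The DHT samples of GLUL lay above the EtOH samples in both lines. CHAC1 was at 0.70 (standard error 0.20, adjusted p = 0.00426) for control cells and 0.07 in KO, and DDIT3 at 0.68 (standard error 0.17, adjusted p = 0.000856) and -0.03. ATF5 went from 532 and 779.9 to 945 and 1033 in control (log2 fold change 0.59, standard error 0.17, adjusted p = 0.00358) and from 482 and 563 to 638 and 715 in KO (0.37). ATF5 passed by a narrow margin and did so in 4 of 11 alternative settings. Without replicate 2 of control DHT the calls of CHAC1, DDIT3 and ATF5 in control ended, while the share of all genes passing changed little. Without replicate 1 of control EtOH, CHAC1 (0.44, adjusted p = 0.108), DDIT3 (0.47, adjusted p = 0.0255) and ATF5 (0.34, adjusted p = 0.0729) no longer passed and PHGDH passed as lower (-0.59, adjusted p = 4.23e-06). ATF4 (0.19 in control, -0.02 in KO), ASNS (0.09, -0.09), PSAT1 (-0.21, -0.30), MTHFD2 (0.15, 0.07) and PHGDH (-0.40, -0.37) did not pass in either line. TRIB3 (0.50, 0.13), SESN2 (0.23, 0.07) and DDIT4 (-0.04, -0.07) did not pass in either.

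No member was shown to respond differently to DHT in KO and control. DESeq2 called 0 of 35, against 0.408% of 13478 genes tested (0.185% lower, 0.223% higher), and edgeR called 0, beside 0.0918% of all genes tested. By each, 7 members had an unadjusted p under 0.05, and the share of all genes with such a p was not computed. Calls appeared among the members with either control EtOH sample left out, where a larger share of all genes passed as well. The median difference was -0.18, and 28 of 37 members had a smaller value in KO. The lowest values among the tested members were those of DDIT3 (-0.71, 95% interval -1.20 to -0.23), CHAC1 (-0.63, 95% interval -1.20 to -0.05), PPP1R15A (-0.61, 95% interval -1.17 to -0.05) and GLUL (-0.56, 95% interval -0.86 to -0.25). These intervals are unadjusted and rest on 2 samples a group. For ASNS the difference was -0.18 (95% interval -0.50 to 0.14) and for PSAT1 -0.09 (95% interval -0.33 to 0.16).

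**Figure D3:**
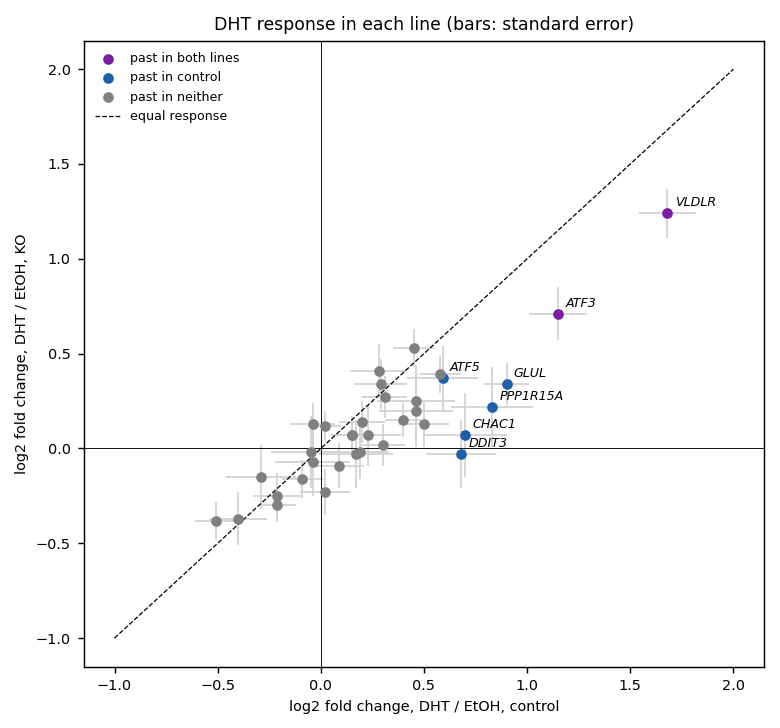
Log2 fold change with DHT over EtOH in control (horizontal axis) and KO (vertical axis) for the 35 members tested, with bars for the standard error and a dashed line for equal responses. VLDLR and ATF3 passed in both lines, and GLUL, PPP1R15A, CHAC1, DDIT3 and ATF5 in control, and these 7 points lie under the dashed line.

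Unstarved cells in FM were then set against starved cells given EtOH. In control 14 of 36 members tested passed, 5 higher and 9 lower in FM, against 21.3% of 18549 genes tested (9.81% higher, 11.5% lower). In KO 9 passed, 6 higher and 3 lower, against 19.3% (9.61% higher, 9.68% lower), so the share in KO was near that of all genes. The members' medians were -0.02 in control and 0.25 in KO, beside -0.009 and -0.007 over all genes tested. The comparisons with DHT and with FM share the EtOH samples.

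The lower members included stress genes. DDIT4 had 528 and 380.3 in the control samples and 505 and 608 in the KO samples of FM, under the EtOH samples of each line (log2 fold change -1.62, standard error 0.18, adjusted p = 2.53e-17 in control and -0.75, adjusted p = 0.000273, in KO). DDIT3 had 373 and 310.3 against 355 and 376 in FM (log2 fold change -1.15, standard error 0.18, adjusted p = 2.47e-09 in control and -0.70, adjusted p = 0.000535, in KO). Both were thus higher in starved cells given EtOH than in FM in either line. These cultures differed in serum, in the use of phenol red-free medium for starvation and in the EtOH treatment together. The parts of these cannot be told apart. ASS1 showed the same direction, from 3053 and 3296 in control EtOH to 1121 and 1088 in control FM (log2 fold change -1.52, standard error 0.11, adjusted p = 3.43e-44). In KO it went from 3753 and 3529 to 1107 and 1118 (log2 fold change -1.71, standard error 0.11, adjusted p = 3.54e-56). The DHT samples of ASS1 lay between those of EtOH and FM (2294 and 2179 in control and 2656 and 2955 in KO). PHGDH (log2 fold change -0.80, standard error 0.14, adjusted p = 8.32e-08), NUPR1 (-0.68), PPP1R15A (-0.70), BCAT2 (-0.66), CHAC1 (-0.65) and CBS (-0.62), which opens the transsulfuration route to cysteine, were lower in control FM. In KO they ranged from -0.40 (PPP1R15A) to -0.15 (NUPR1), and none passed. Without replicate 2 of control EtOH fewer members passed as lower in control, and a smaller share of all genes passed as well. After an adjustment for GC content 8 members passed, 5 of them lower, beside 19.4% of all genes tested. CHAC1, PPP1R15A, BCAT2, CBS, GOT1 and VLDLR no longer passed then.

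Sample values of these genes show the size of the shift. NUPR1 had 5222 and 7789 with EtOH and 4312 and 3784 with FM in control, and 5099 and 4214 with EtOH and 3904 and 4473 with FM in KO. PPP1R15A had 147 and 102 in the control samples and 127 and 149 in the KO samples of FM. In control EtOH, replicate 2 of NUPR1 was well above replicate 1. BCAT2, the mitochondrial branched-chain aminotransferase, had 1887 and 2849 with EtOH and 1554 and 1440.5 with FM in control, and 2104 and 2098 with EtOH and 1777 and 1804 with FM in KO, with 1877 and 2001 against 1712 and 2075 in DHT. CBS went from 5125 and 6010.1 with EtOH to 3808 and 3442 with FM in control and from 4656 and 4596 to 3441 and 3765 in KO, with 6322 and 6487 against 4845 and 5338 in DHT. The FM samples of CBS lay below the EtOH samples in each line.

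The higher members in FM included enzymes of aspartate and folate metabolism. GOT1, the cytosolic aspartate aminotransferase, rose from 3349 and 3779.9 to 5643 and 5558 in control (log2 fold change 0.65, standard error 0.10, adjusted p = 2.94e-10) and from 3111 and 3006 to 4987 and 5069 in KO (log2 fold change 0.72, standard error 0.10, adjusted p = 3.22e-12). GOT2, its mitochondrial counterpart, rose from 5567 and 5482 to 8616 and 9212 (log2 fold change 0.69, standard error 0.09, adjusted p = 1.86e-13) and from 5058 and 4859.8 to 7702 and 7464 (log2 fold change 0.61, standard error 0.09, adjusted p = 9.84e-11). In DHT, GOT1 had 5208 and 5444 in control and 3931 and 4112 in KO, and GOT2 7456 and 7096 against 5424 and 5602, with group means between those of EtOH and FM in each line. MTHFD1, the cytosolic trifunctional folate enzyme, rose from 3231 and 2952 to 5087 and 5164 in control (log2 fold change 0.73, standard error 0.11, adjusted p = 1.29e-10) and from 2430.2 and 2678 to 4055 and 3803 in KO (log2 fold change 0.62, standard error 0.11, adjusted p = 7.68e-08), with 3188 and 2840.5 against 2838 and 2765 in DHT. MTHFD2 did not pass in either line (0.32 and 0.55). EIF2AK4, the GCN2 kinase, rose in control from 2860.5 and 2156 to 4459 and 4480.2 (log2 fold change 0.83, standard error 0.14, adjusted p = 1.09e-08) and went from 2521 and 2684 to 3994 and 3732 in KO (0.57), just under the minimum. VLDLR had 413 and 395 in the control samples and 419 and 477 in the KO samples of FM (0.67 in control, passing, and 0.56 in KO).

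In KO, ATF5, EIF4EBP1 and GPT2, an alanine aminotransferase, passed as higher in FM. ATF5 had 885 and 925 in KO FM (log2 fold change 0.79, standard error 0.17, adjusted p = 2.62e-05) and 762 and 709 in control FM (0.17). EIF4EBP1 went from 2013 and 1806 to 3215 and 3337 in KO (log2 fold change 0.78, standard error 0.19, adjusted p = 0.000204) and from 2036 and 3292 to 2675 and 2445 in control (-0.06). The control EtOH samples of EIF4EBP1 were widely apart and enclosed both FM samples. GPT2 went from 1772 and 1868 to 2764 and 2986 in KO (log2 fold change 0.66, standard error 0.10, adjusted p = 1.49e-09) and from 2512 and 2687 to 3080.0 and 2991 in control (0.22), with 3647 and 3454 against 2537 and 2721 in DHT. Only DDIT4 passed the test of a different FM response (log2 fold change 0.88, standard error 0.26, adjusted p = 0.0481), 1 of 35 members against 1.39% of 12971 genes (0.748% higher, 0.64% lower), and it did so in 6 of 15 alternative settings. Without replicate 1 of control EtOH 9 members passed, and so did 16.7% of all genes tested. For EIF4EBP1 (0.84, adjusted p = 0.0714) and ATF5 (0.63, adjusted p = 0.168) a difference was not shown. CEBPB went from 483 and 704 to 501 and 414 in control and from 401 and 411 to 488 and 476 in KO. CEBPG went from 1332 and 1397 to 1365 and 1336 and, in KO, from 1029.7 and 1029.6 to 1197 and 1137. Neither of these partners of ATF4 passed for FM in either line. STC2, at 2272 and 2209 with EtOH and 2052 and 1681 with FM in control, and 1553 and 1582 with EtOH and 1462 and 1383 with FM in KO, did not pass either. GLUL had 10342 and 10212 in the control samples and 8413 and 8286 in the KO samples of FM, at -0.03 and -0.57.

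**Figure D4:**
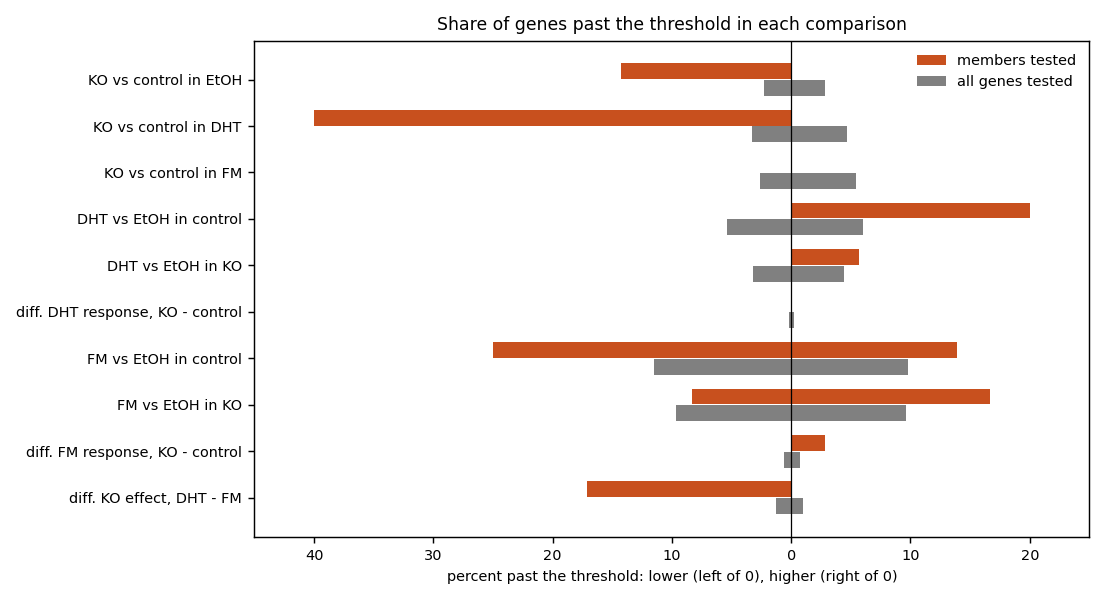
Percent of tested genes past the threshold in each comparison (horizontal axis), lower to the left of 0 and higher to the right, for the members (orange) and for all genes tested (grey). The widest gap is in KO against control in DHT, where 40% of the members tested and 3.32% of all genes tested were lower.

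Other genes of the pathway were read from lists chosen by function, also with earlier results of these data known. Log2 fold changes are given throughout. Of 9 amino acid transporters known as ATF4 targets, 6 were lower in KO in DHT, 4 in EtOH and 1 in FM, and none was higher, with medians of -0.68, -0.42 and -0.35. These are 66.7, 44.4 and 11.1% of the list, beside 7.98, 5.11 and 8.01% of all genes tested, so the share in FM was near that of all genes. The gene called in FM was SLC7A11, which imports cystine, with -1.08, standard error 0.14 in FM, -1.08, standard error 0.14 in DHT and -1.10, standard error 0.14 in EtOH. SLC1A5, a glutamine carrier, was at -1.13, standard error 0.12 in DHT and -1.15, standard error 0.12 in EtOH. The largest rise with DHT in control was that of SLC38A2 (1.74, standard error 0.12), another glutamine carrier. Of 20 cytosolic aminoacyl-tRNA synthetases, 2 were lower in KO in DHT, CARS1 (-0.67, standard error 0.11) and GARS1 (-0.61, standard error 0.09), and none in EtOH or FM, with a median of -0.25 in DHT. This is 10% of the list, near the 7.98% of all genes tested. Of 13 genes for eIF2 and its control none passed between the lines in any condition. The shares of all genes tested were 7.98% in DHT, 5.11% in EtOH and 8.01% in FM, low for a list of this size. PPP1R15B, a phosphatase subunit like PPP1R15A, rose with DHT in both lines (0.84, standard error 0.10, for control, and 0.62, standard error 0.10, for KO). Of 12 other folate and glycine genes 1, the low-count AMT (1.12, standard error 0.35), was higher in KO in DHT and none was lower. That is 8.33% of the list, near the 7.98% of all genes tested. In FM TYMS, thymidylate synthase, was higher than in EtOH in both lines (0.97, standard error 0.13, for control, and 1.42, standard error 0.13, for KO). GLDC, the glycine decarboxylase, fell with DHT in control (-1.02, standard error 0.16).

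The ATF6 and IRE1 arm of the unfolded protein response, which runs beside the PERK branch that leads to ATF4, differed in the same direction. Of 9 genes, 7 were lower in KO in DHT, 5 in EtOH and 0 in FM, with medians of -0.96, -0.63 and -0.22, beside 7.98, 5.11 and 8.01% of all genes tested in either direction. HSP90B1, an endoplasmic reticulum chaperone, had the largest fall in DHT (-1.30, standard error 0.13). DHT raised 8 of the 9 in control and 5 in KO, beside 6.04% and 4.43% of all genes tested, with DNAJB9, a cochaperone of BiP, at 1.42, standard error 0.12, for control, and 1.34, standard error 0.13, for KO. For none of them was a different DHT response shown. In the contrast of the KO effect between DHT and FM, 6 of the 9 passed, all lower under DHT, beside 2.28% of all genes tested. That contrast was added after the values were seen and was related to GC content, and it was not repeated for this list with samples left out.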

How the data were processed

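Poly(A) RNA of 12 LNCaP samples was sequenced from stranded libraries. The authors demultiplexed reads with CASAVA 1.7, aligned them with TopHat2 2.0.11 to the human genome and counted reads per Ensembl gene with HTSeq 0.5.3p3 (tools per the labels), and the deposited values are raw counts of reads per gene. The strand setting and annotation release are not given in the sources used here. Reads tallied as unassigned (26.9 to 31.5% per library) were left out.

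Groups were taken from the labels. Counts were fitted with DESeq2 1.42.0 in R 4.3.3 (Wald test, 1 coefficient per group, all 12 samples sharing the dispersion) for 26156 genes with at least 10 counts summed over samples, with Benjamini-Hochberg adjustment over all genes tested. A gene passed at an adjusted p of at most 0.05 and a fold change of at least 1.5, thresholds that the study's methods use. Every adjusted p comes from this DESeq2 fit unless the text names edgeR, a GC adjustment, only the samples compared or a sample left out.

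The alternatives were edgeR 4.0.16 (quasi-likelihood test, TMM), DESeq2 with TMM size factors, other filters, only the samples compared, a replicate block, no fold change minimum and each sample left out. A GC correction (lowess, span 0.3, on genes with a mean of at least 100 counts) and the contrast of the KO effect between DHT and FM were added after seeing the data. The main DESeq2 fit and the edgeR fit were tried on simulated data for KO against control in EtOH only, and the other fits were not. Symbols and exon lengths were from GENCODE on GRCh37.

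The members and lists were chosen with earlier results of these data known. Sample values are given for 10 preset members and for each member that passed in any comparison. In the other lists a rule allowed the largest rise and fall past the threshold to be named, at a mean of at least 100 normalized counts. Not every such rise or fall was named, and other genes named there were chosen after their values were seen.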

Additional observations from a re-analysis of the deposited data

Results flagged for a closer look

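In 7 instances the effect of the same contrast differed between groups by a test of the difference itself (DESeq2). The FM response of DDIT4 was higher in KO than in control by 0.88 on the log2 scale. The KO to control log2 ratio was lower in DHT than in FM for DDIT3 (-1.16), CHAC1 (-1.08), ATF3 (-0.92), DDIT4 (-0.90), ATF5 (-0.85) and TRIB3 (-0.63). The latter contrast was added after the values had been seen, and both differences share the FM samples. No group had enough samples for a test of single outlying samples.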

How the results depend on the processing

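Counts of members past the threshold were recomputed under each alternative. Without a fold change minimum they were 15 for KO against control in EtOH, 25 in DHT (24 lower, 1 higher) and 9 in FM. Of all genes tested, 9.81, 16.4 and 18.5% passed there. The counts for DHT were 15 in control and 8 in KO, beside 19.9 and 13.6% of all genes tested. For FM in KO the count was 20, beside 31.7%, and for the difference in FM response it was 2, beside 1.53%. With only the samples compared the counts were 3 for KO against control in EtOH, 0 for the difference in FM response and 10 for the KO effect in DHT minus FM. Of all genes tested, 3.1, 1.15 and 7.75% passed there. With edgeR the last 2 counts were 0 and 2, beside 0.249 and 0.348% of all genes tested. After the GC correction 8 members passed for FM in control and 0 for the difference in FM response, beside 19.4 and 1.22%. With each sample left out in turn, counts ranged from 1 to 10 for KO against control in EtOH, from 9 to 16 in DHT and from 0 to 0 in FM, from 4 to 10 for DHT in control and from 2 to 2 in KO, from 0 to 2 for the difference in DHT response, from 8 to 14 for FM in control and from 9 to 10 in KO, from 0 to 9 for the difference in FM response and from 0 to 9 for the KO effect in DHT minus FM. A group left with 1 sample was assumed to vary like the others.

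The replicate numbers did not pair the samples: of 15 correlations between same-numbered deviations, from -0.415 to 0.692, 6 exceeded 0.1. With the replicate block 2 members passed for the difference in FM response, beside 2.17% of all genes tested. For the KO effect in DHT minus FM 9 passed, beside 3.92%, and the other 8 counts did not change. Of 1591 alternative values of 133 results of single genes, 104 lost the call, 10 gained one and 1477 kept their side of the threshold. None of the called values changed sign, while 40 values that were not called did. The cause of these changes was not tested. With 2 samples a group and 20826843 or more counts a library, replicate spread limits most members, and depth limits ALDH1L2 and BCAT1.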
